A study of Mus musculus with 24 samples.

Results

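Mouse microRNAs are numbered in the order in which they were registered, so names from 3000 upwards are recent entries. The miRNAs described here were chosen by name and by abundance: every mature name numbered 3000 or higher except miR-3061, with at least 100 raw counts summed over all 24 libraries. Of 1221 mature names in the table, 87 met the rule; 471 further names numbered 3000 or higher fell under 100 counts. The summed counts chose the members and are therefore given as description only. The members just inside the threshold were miR-7668-5p and miR-3470b with 103 counts each and miR-6933-5p with 104, and the names just outside were miR-7682-3p with 97, miR-7661-3p with 94 and miR-3098-5p with 93. The members are compared with the 377 names numbered under 3000 (let-7 included) that reached the same 100 counts.

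The cells were 3T9, an established line of mouse embryonic fibroblasts, grown in DMEM with serum. They were given 300 µM 4-thiouridine (4SU), a uridine analogue that is built into newly made RNA, for 3 h, followed by 1 mM uridine as a chase. Biotin was coupled to the 4SU RNA, which was pulled down with streptavidin beads and sequenced as small RNA after 0, 2, 4, 6, 8, 10 and 12 h of chase in 3 independent experiments (21 purified libraries). Of 3 further libraries, each a single sample, 1 was total RNA of unlabelled cells, 1 was total RNA of 4SU-pulsed cells without capture, and 1 was a capture from unlabelled cells (the negative extraction); the deposited treatment label of these 3 reads the same as for the pulsed cells. All groups shared the cell line and medium. The question put by the design was how fast individual miRNAs disappear after the pulse.

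A canonical miRNA is cut from a hairpin transcript by Drosha and Dicer, and either arm of the hairpin (5p or 3p) can be loaded into an Argonaute protein and guide repression of target mRNAs through its seed, bases 2 to 8. Mirtrons take another route: a short intron is spliced out, debranched and folded into the hairpin, so that splicing replaces the Drosha cut and the 3p arm ends at the splice acceptor, usually in AG. Nucleotidyltransferases can add untemplated bases to the 3′ end of a miRNA or of its precursor, uridine and adenosine being the usual ones. Hairpins of splicing origin are known substrates of 3′ uridylation in other animals.

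Of the 87 members, 77 had a mature sequence in RefSeq (GRCm38.p6), as had 306 of the 377 lower-numbered names. The 10 without one were miR-3074-1-3p, miR-5099, miR-6539, miR-6540-5p, miR-6952-3p, miR-6956-3p, miR-7042-5p, miR-7224-3p, miR-7666-3p and miR-7668-5p. The sequences below run 5′ to 3′ with the seed in capitals. The first set is shown because its members end at the 3′ end of an annotated intron, which the final bases "ag" mark:
miR-6944-3p: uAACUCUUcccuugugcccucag
miR-7068-3p: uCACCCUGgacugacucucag
miR-7018-3p: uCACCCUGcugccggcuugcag
miR-6914-3p: uCUGUCCAccucuucccag
miR-6988-3p: uGACCUCUguaucuccugccag
miR-7075-3p: cAACCAUGucuucuuucccag
miR-7079-3p: uGACUUCUguucucuuuccag
miR-7117-3p: uGUCCUUCucuuucccccag
miR-6948-3p: uGUCCUUCcugucugaccaca
The last of these stops 1 base short of the intron's end in RefSeq. The second set is shown because it carries the other chase, labelling and isoform results:
miR-3102-3p.2-3p: cUCUACUCccugccccagcca
miR-3102-3p: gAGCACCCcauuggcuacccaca
miR-8112: uCUCCGCCaccuccaccgca
miR-3074-2-3p: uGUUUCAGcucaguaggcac
miR-3074-5p: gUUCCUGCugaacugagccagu
miR-3057-5p: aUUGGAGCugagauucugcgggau
miR-3058-3p: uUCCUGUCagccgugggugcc
miR-3089-3p: aGCAUCUGcugauccugagcugu
miR-3105-3p: aCUGCUUAugagcuugcacucc
miR-3063-3p: uGAGGAAUccugaucucucgcc
No member shared its seed with any of the 306 lower-numbered names. Among the members, miR-6948-3p shared its seed with miR-7117-3p, and miR-7018-3p with miR-7068-3p; the 77 sequences held 75 distinct seeds.

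The members were far more often placed at a splice acceptor than the lower-numbered names. In the GENCODE annotation of GRCm38, the mature 3′ end lay within 2 bases of the 3′ end of an intron on the same strand for 26 of 77 members (33.8%), against 7 of 306 lower-numbered names (2.29%). All 26 were 3p arms, out of 47 3p members with a sequence, and most of them had numbers between those of miR-6899-3p and miR-7117-3p. Inside an intron of any length lay 66 of 77 members (85.7%) and 177 of 306 lower-numbered names (57.8%). In 3 members the annotated hairpin began at the first base of the intron and the mature arm ended at its last: miR-6944-3p in a 96-base intron of Dbn1, the actin-binding protein drebrin (chr13:55477681-55477703, minus strand), miR-7018-3p in an 85-base intron of Hspg2, the proteoglycan perlecan (chr4:137538349-137538370, plus strand), and miR-7068-3p in a 74-base intron of Cherp (chr8:72470016-72470036, minus strand). Other acceptor-ended members sat at the end of long introns, such as miR-7117-3p in a 3951-base intron of Ank and miR-6899-3p in a 36269-base intron of Klf7. Median length was 22 bases in both groups and the median share of U, the base that 4SU can replace, was 26.1% in the members and 27.3% in the lower-numbered names, while GC content was higher in the members (54.5% against 47.8%). The first base was U in 58.4% of members and 35.9% of the others.

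Exact matches to annotated transcripts set a few members apart. The miR-3470b sequence occurred in transcripts of 546 genes and that of miR-3473b in 343, so their counts cannot be tied to one locus. The sequences of miR-3068-3p, miR-3084-3p, miR-3535 and miR-6516-5p matched annotated small nucleolar or Cajal body RNAs, which guide modification of other RNAs; for miR-3068-3p that transcript is listed under the miRNA's own gene name. miR-8112 lay in an exon of Krcc1 (chr6:71271745-71271764, plus strand). For the members with no mature sequence only the hairpin could be placed: miR-5099 at chr12:36816205-36816278 outside any annotated host gene, miR-6539 within Dock5 (chr14:67859636-67859745, minus strand) and miR-7224-3p within B3galt1 (chr2:67675457-67675516, plus strand). The genome build of the authors' own alignment is not given in the sources used here.

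The members were a small part of every library. Purified libraries held 1133048 to 7886484 counts, and the members took 0.215% ± 0.022 (SD, n = 3) of them at 0 h, 0.257% ± 0.045 at 4 h and 0.227% ± 0.019 at 12 h. They took 0.218% of total RNA from 4SU-pulsed cells, 0.186% of unlabelled total RNA and 0.188% of the negative extraction, whose 283922 counts make 3 counts worth 10.6 CPM (counts per 1000000 counts of the library). Of 201202 member counts, 74.5% belonged to 6 names, and the median member had 283 summed counts against 3007 for a lower-numbered name. The fibroblast markers miR-143-3p and miR-21a-5p had median levels of 105528 and 67760 CPM in the purified libraries, all 5 blood markers stayed under 1 CPM in every purified library, and of 5 epithelial markers miR-205-5p alone passed 2 CPM, at a median of 563 CPM. In bulk libraries, fewer cells expressing a miRNA and fewer molecules per cell cannot be told apart.

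The most abundant members by mean CPM over the 21 purified libraries were miR-5099 (539 CPM), miR-6539 (375 CPM), miR-6944-3p (287 CPM), miR-3057-5p (239 CPM), miR-3074-5p (224 CPM), miR-3074-2-3p (120.4 CPM), miR-6540-5p (64.2 CPM), miR-7224-3p (59.1 CPM), miR-7068-3p (57.3 CPM) and miR-3102-3p.2-3p (35.0 CPM). None of them was mainly its annotated sequence. The table splits each name into the canonical sequence, trimmed forms, 3′ or 5′ extensions that match the genome (templated) and 3′ or 5′ additions that do not (non-templated). Canonical reads made up a median of 17.2% of a member's counts (mean over purified libraries; quartiles 6.65% and 41.9% over the members). The median for lower-numbered names was 40.8%. A form other than the canonical sequence led in 65 of 87 members and in 186 of 377 lower-numbered names. Among the 130 lower-numbered names with under 1000 summed counts, whose depth is nearer to that of the members, the median canonical share was 32.9%.

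Non-templated 3′ additions were the leading form in 28 of 87 members and in 24 of 377 lower-numbered names. Their median share was 17.9% in the members, 6.35% in all lower-numbered names and 4.05% in the 130 rare ones. The acceptor-ended arms held the highest shares: additions made up a median of 63.2% of the counts of those 26 members, and 8.69% of the counts of the 21 other 3p members with a known position. The lower-numbered 3p arms away from an acceptor (144 names) had a median of 9.54%, and the 7 lower-numbered acceptor-ended names 38.2%. Of those 7 names 5 were 3p arms, whereas all 26 acceptor-ended members were. These are descriptions over names, several of which share a hairpin, and no test was made of them.

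The added base in the acceptor-ended members was mostly uridine. Reads carrying only added U made up a median of 2.47% of the counts over all 87 members. In the acceptor-ended members the median was 43.9%, against 1.62% in the other 3p members. It was 6.97% in the 7 lower-numbered acceptor-ended names and 1.22% in the lower-numbered 3p arms away from an acceptor. All of these are shares in captured RNA. Over all 87 members the median was lower in the total RNA libraries, which had no capture step (value in the last section). Many members had few counts there: 58 of 87 reached 10 counts in total RNA of 4SU-pulsed cells. Whether capture changes the share of reads with added U was not tested. In the purified libraries, over 50% of the counts carried added U in 12 of 26 acceptor-ended members and in 1 of 21 other 3p members. Of the lower-numbered names, 0 of 7 acceptor-ended ones and 3 of 144 3p arms away from an acceptor passed 50%. Those 3 were let-7f-2-3p, miR-148b-3p and miR-322-3p, named after their values were seen. Of the 24 acceptor-ended members with at least 20 added reads, U was the leading addition in 18, A in 3 and mixed bases in 3. Of the 108 lower-numbered 3p arms away from an acceptor with as many, U led in 38, A in 34 and mixed bases in 30. In the 6 lower-numbered acceptor-ended names with as many added reads, mixed bases led in 4, A in 2 and U in 0. Over all 276 lower-numbered names with as many added reads, whatever their arm, A led in 109, mixed bases in 86 and U in 69. The highest U shares were 87.0% in miR-7075-3p, from an intron of Terf2, and 86.7% in miR-7079-3p, from an intron of the ribosomal protein gene Rpl13. The acceptor position did not go with uridylation in every case: 7 of the 26 had under 5% added U, among them miR-6948-3p with 0.19%, miR-7018-3p with 0.80% and miR-7082-3p with 1.19%. 3 members without a mature sequence in RefSeq also passed 50%, namely miR-6952-3p (78.1%), miR-6956-3p (76.5%) and miR-7224-3p (72.2%).

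**Figure D1:**
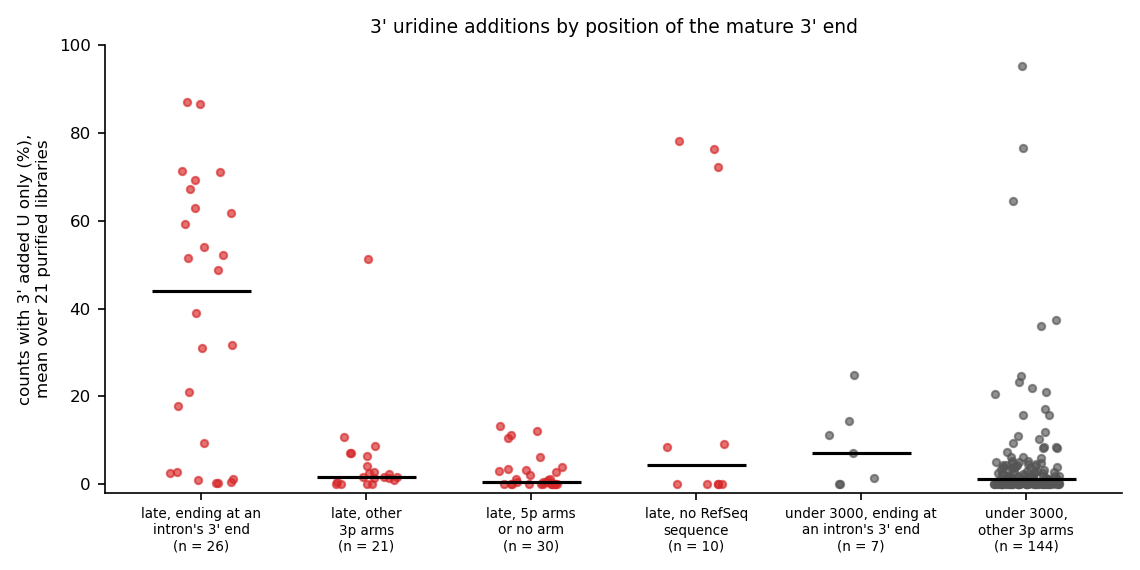
Share of a name's counts carrying only added uridine at the 3′ end (%, mean over the 21 purified libraries), 1 point per name and a bar at the median, for late-numbered names (3000 or higher, red) and names under 3000 (grey). The 26 late names ending at an intron's 3′ end have a median of 43.9% and spread from near 0 to 87.0%, while the other groups with a known position have medians of 6.97% or less. All 26 are 3p arms, as are 5 of the 7 names under 3000 that end at an intron's 3′ end.

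Single libraries could be compared in the members with more counts. In miR-6944-3p, 74.1% ± 2.1 (SD, n = 21) of counts had a 3′ addition and 54.0% ± 3.6 had added U, with U shares from 45.7% to 59.7% in single libraries. At 0 h its U share was 54.5% ± 1.4 (SD, n = 3) and at 12 h it was 51.6% ± 6.1. In miR-7224-3p the U share was 71.3% ± 3.1 at 0 h and 75.1% ± 1.8 at 12 h, and the single values of the 2 times overlapped. In miR-7068-3p, which carried both U (48.8%) and A (32.5%), the U share was 49.4% ± 6.6 at 0 h and 49.8% ± 5.7 at 12 h. In miR-7068-3p the difference between the ends of the chase was smaller than the spread between experiments at either time. In miR-6944-3p it was smaller than the spread at 12 h but larger than that at 0 h. The rarer miR-6914-3p, from an intron of Ankrd52, and miR-6988-3p, from an intron of Syvn1, had U shares of 62.9% and 67.2%.

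Within a single intron of Arhgef17, 3 members lay side by side. miR-3102-3p.2-3p (chr7:100882330-100882350, minus strand) directly abuts miR-3102-3p (chr7:100882307-100882329), which stops 1 base before the end of the 104-base intron; miR-3102-5p.2-5p (chr7:100882367-100882387) belongs to the other arm. Added U made up 51.2% ± 9.2 (SD, n = 21) of the counts of the inner 3p arm, miR-3102-3p.2-3p, and 0.51% ± 0.69 of those of the terminal arm, miR-3102-3p, whose additions were mixed bases (42.5% of its counts). The inner arm was the single non-acceptor 3p member with over 50% added U.

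Other abundant members owed their counts to other forms. In miR-5099, 79.6% ± 2.6 (SD, n = 21) of counts had a non-templated 5′ addition and 17.9% a 3′ addition; 0.44% of its 36548 purified counts were canonical, and 79.4% fell in the 5′ class of mixed bases. In miR-6539, 87.8% ± 4.7 of counts were trimmed. miR-3074-5p was 99.3% trimmed and miR-3074-2-3p 98.6% extended at the 5′ end by templated bases. miR-3057-5p, from Apba3, was spread over several forms, with 32.2% extended at the 3′ end by templated bases, 26.4% canonical and 24.4% trimmed. miR-6540-5p, from the Gap43 hairpin, carried added A in 38.0% of its counts. miR-8112 was 80.6% ± 10.0 extended at the 3′ end by templated bases and 1.43% canonical. What the authors counted as trimmed, and how many bases could be added, is not given in the sources used here.

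**Figure D2:**
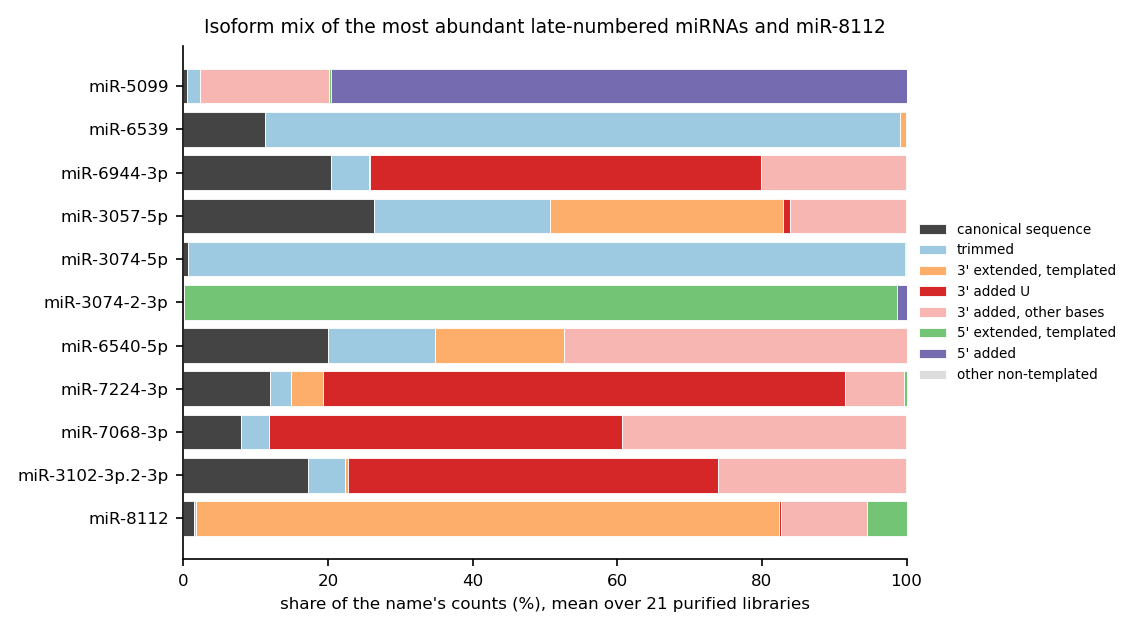
Horizontal bars splitting the counts of the 10 most abundant late-numbered miRNAs and miR-8112 into isoform classes (%, mean over 21 purified libraries). No bar is mainly canonical: 5′ additions fill 79.6% of miR-5099, trimmed forms 87.8% of miR-6539, and added U (red) 54.0% of miR-6944-3p and 72.2% of miR-7224-3p.

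The pair miR-3074-5p and miR-3074-2-3p lies on the opposite strand of the miR-24 hairpins, and by RefSeq positions the first is antisense to miR-24-3p and the second to miR-24-2-5p. Whether the counting used strand is not given in the sources used here, so reads of the partners cannot be told apart with certainty. miR-3074-5p averaged 224 CPM beside 402 CPM for miR-24-3p, and the ratio ran from 29.7% to 99.6% between purified libraries. miR-3074-2-3p averaged 120.4 CPM beside 57.8 CPM for miR-24-2-5p, with a narrower ratio of 170.0% to 252%.

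Labelling was compared as the log2 ratio of CPM (pseudocount 1 CPM) in each purified 0 h library over total RNA of 4SU-pulsed cells. With a single total RNA library no test was possible. That library carries another code in the table's header than the purified ones, so capture and whatever the code stands for cannot be told apart. Of the members, 58 had at least 10 counts in the total library. Their median ratio was -0.03 (quartiles -0.48 and 0.37), and that of 351 lower-numbered names was -0.28 (quartiles -1.17 and 0.48). The ratio was above 0 in all 3 experiments for 14 of 58 members and below 0 in all 3 for 17, beside 95 and 153 of 351 lower-numbered names. Scaling by trimmed means (TMM) moved the members' median to 0.21 and that of the lower-numbered names to -0.01.

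The highest ratios were those of miR-6944-3p and miR-6988-3p, both acceptor-ended. miR-6944-3p stood at 255 CPM, 322 CPM and 214 CPM in the 0 h libraries of experiments 1 to 3 against 116.4 CPM (527 counts) in the total library, a mean log2 ratio of 1.15 ± 0.30 (SD, n = 3). miR-6988-3p gave 1.10 ± 0.30, from 16 counts in the total library. Both were higher in unlabelled total RNA, at 193 CPM for miR-6944-3p and 5.15 CPM for miR-6988-3p (3.54 CPM in 4SU-pulsed total RNA), and their 0 h values lay above that level too, by less. The lowest ratios were those of miR-3105-3p (-3.23 ± 0.88, 102 counts in the total library) and miR-3063-3p (-3.06 ± 0.20, 60 counts), which lies in an exon of Igf2bp1. miR-3063-3p had 4, 3 and 3 counts in the 0 h libraries of experiments 1 to 3, each under 1 CPM. The size of its ratio therefore depends on the pseudocount. miR-3105-3p stood at 1.68 CPM, 0.33 CPM and 3.47 CPM in the 0 h libraries against 22.5 CPM in the total library, so every purified 0 h library lay below it. The 0.33 CPM rested on 1 count. Of the members named for their isoforms, miR-5099 gave -0.11 ± 0.45 and miR-6539 0.24 ± 0.78, both within their spread of 0, whereas miR-7224-3p gave -1.20 ± 0.18 and miR-8112 0.71 ± 0.27. For miR-7224-3p the direction turned with the reference library: its 0 h values of 46.2 to 58.3 CPM lay below the 124 CPM of 4SU-pulsed total RNA and above the 44.1 CPM of unlabelled total RNA. Across the 51 members with a sequence and 10 counts, the labelling ratio had a Pearson r of -0.09 with the share of U, and -0.02 across 288 lower-numbered names, a description over names that share their libraries.

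**Figure D3:**
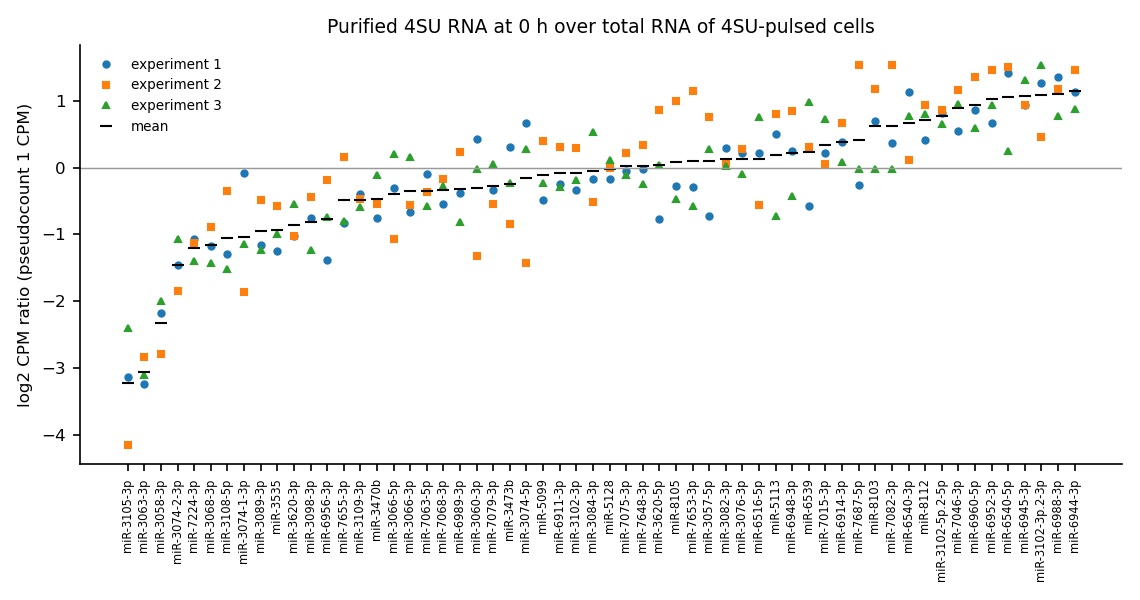
Log2 CPM ratio (pseudocount 1 CPM) of purified 0 h RNA over total RNA of 4SU-pulsed cells for the 58 late-numbered miRNAs with at least 10 counts in the total library; coloured symbols are the 3 experiments and black dashes their mean. The means run from -3.23 (miR-3105-3p) to 1.15 (miR-6944-3p), and the median lies near 0.

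The negative extraction was not empty of members. It held 533 member counts, 33 of 87 members had no count in it, and at this depth 0 counts still allow 10.6 CPM. For the 10 members with at least 10 counts there, the median log2 ratio of purified 0 h RNA over the negative extraction was -0.12; for 184 lower-numbered names it was 0.07. miR-7224-3p was at 229 CPM in the negative extraction (65 counts) and at 46.2 to 58.3 CPM in the purified 0 h libraries. CPM are shares of a library, so this comparison does not give the amount of RNA that the beads held from either kind of cell.

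Over the chase, few members were called as changing relative to the other miRNAs. A slope of log2 abundance per hour was fitted to the 21 purified libraries with edgeR's quasi-likelihood test after TMM scaling, with Benjamini-Hochberg adjustment over the 414 names that passed the low-count filter. Of the members 66 of 87 passed it, and the 21 that did not had 103 to 217 summed counts. 2 of the 66 rose and 1 fell at an adjusted p under 0.05, beside 5.07% of all tested names rising and 7.25% falling. Libraries of one experiment deviated together, so the experiment was also fitted as a replicate block: then 7 members rose and 3 fell, beside 15.2% and 16.7% of all names. In each direction, with or without the block, the share of members called lay below that background. The members were also shallower, with a median of 283 summed counts over all 87 against 3007 for a lower-numbered name. Calls were not compared at matched depth, so the lower share cannot be read as steadier members. The median slope was 0.019 per h in the members, with 41 of 66 above 0, and -0.0037 over all tested names, with 192 of 414 above 0. By total counts the members' median slope was 0.00013, with 33 of 66 above 0. That of all tested names was then -0.023, with 127 of 414 above 0, so the members' median stayed above it. Scaling by total counts shifted the median of all names by -0.23 on the log2 scale over 12 h, with 0 members rising and 2 falling, and upper-quartile scaling shifted it by 0.11, with 3 rising and 0 falling; none of the 10 members called with the block changed the sign of its slope under these scalings. With the block and total counts, 2 members rose (miR-6948-3p and miR-7068-3p) and 6 fell. For all names the share of calls that rose was 41.2% with TMM, 17.5% by total counts and 61.9% by the upper quartile.

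miR-6948-3p, from an intron of Acin1, a gene for a nuclear protein that acts in apoptosis and splicing, rose. It stood at 7.50 CPM, 11.9 CPM and 4.34 CPM at 0 h in experiments 1 to 3 and at 12.8 CPM, 13.2 CPM and 11.8 CPM at 12 h. It was higher at 12 h in each experiment, although the highest 0 h value lay just above the lowest 12 h value. Its slope was 0.088 ± 0.025 per h (SE; edgeR adjusted p = 0.0252), and 0.090 ± 0.021 with the replicate block (edgeR adjusted p = 0.0011). The call was lost without experiment 1 (adjusted p = 0.170), without experiment 3 (0.221), without the single 0 h sample of experiment 3 (0.0666), without all 12 h libraries (0.174) and by total-count scaling (0.0569).

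miR-7224-3p rose by the fit, but its CPM was lower at 12 h than at 0 h in experiment 2. It stood at 58.3 CPM, 56.3 CPM and 46.2 CPM at 0 h and at 80.8 CPM, 49.4 CPM and 79.4 CPM at 12 h, so the groups overlapped. The slope was 0.046 ± 0.014 per h (SE; edgeR adjusted p = 0.0311, with the replicate block 0.0050). The call was lost by total-count scaling (adjusted p = 0.206, with the block 0.0830), without experiment 1 (0.113) and without experiment 3 (0.490). Leaving out 1 sample also ended it for 0 h in experiment 1 (0.0545) and experiment 3 (0.0769), for 12 h in the same experiments (0.0731 and 0.0757) and for 10 h in experiment 3 (0.0553). Counting the templated forms alone, which leaves out its uridylated reads, the slope was 0.023 ± 0.018 per h (adjusted p = 0.4993).

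miR-8112 fell. Its levels were 13.6 CPM, 19.9 CPM and 18.0 CPM at 0 h and 9.14 CPM, 0.88 CPM and 6.71 CPM at 12 h, without overlap, the 0.88 CPM being a single count. The slope was -0.088 ± 0.029 per h (SE; edgeR adjusted p = 0.0476) and -0.086 ± 0.024 with the replicate block (edgeR adjusted p = 0.0069). Without the block the call held in 3 of the 24 fits that left out a library or an experiment; the highest adjusted p, 0.263, came without experiment 3.

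With the replicate block, 5 further members rose: miR-7068-3p (slope 0.053 ± 0.013 per h, SE; edgeR adjusted p = 0.0016), miR-6944-3p (0.037 ± 0.010, 0.0060), miR-5099 (0.040 ± 0.014, 0.0259), miR-3089-3p (0.091 ± 0.032, 0.0297) and miR-3058-3p (0.109 ± 0.041, 0.0409). The experiments did not all move alike: in experiment 2 the CPM of miR-7068-3p, miR-6944-3p and miR-3089-3p was lower at 12 h than at 0 h. For miR-3089-3p that 12 h value rested on 2 counts. In miR-5099 the experiments differed more than the times: 288 CPM, 530.3 CPM and 341 CPM at 0 h against 380.0 CPM, 727 CPM and 413 CPM at 12 h, each experiment being higher at the end, with its highest value at 4 h in experiments 2 and 3. miR-3102-3p.2-3p fell with the block (-0.066 ± 0.014 per h, edgeR adjusted p = 0.0007), from 52.0 CPM, 29.1 CPM and 63.1 CPM at 0 h to 27.4 CPM, 15.0 CPM and 29.2 CPM at 12 h. miR-3074-2-3p fell too (-0.052 ± 0.014, 0.0051), from 160.5 CPM, 121.9 CPM and 210.3 CPM to 82.9 CPM, 73.3 CPM and 121.2 CPM; its antisense partner miR-24-2-5p had a slope of -0.059 with the block (edgeR adjusted p = 0.00042). The other antisense pair differed in sign. Without the block its slopes were 0.021 for miR-3074-5p and -0.049 for miR-24-3p, and neither was called. Of the 7 risers with the block, miR-6948-3p, miR-7068-3p and miR-6944-3p were acceptor-ended. Of the 21 acceptor-ended members tested, 3 rose and 0 fell with the block, beside the 15.2% and 16.7% of all names given above. Without experiment 3 the block fit called 4 members, namely miR-3057-5p, miR-3074-5p and miR-6539 as rising and miR-3102-3p.2-3p as falling. In the negative extraction miR-5099 had 92 counts, miR-7224-3p 65, miR-6944-3p 43, miR-7068-3p 8, miR-6948-3p 4, miR-3058-3p 3 and miR-3089-3p 0. The fallers miR-3074-2-3p, miR-8112 and miR-3102-3p.2-3p had 18, 2 and 2. By CPM, miR-7224-3p, miR-6948-3p and miR-3058-3p stood higher there than in every purified 0 h library, the last 2 on only 4 and 3 counts. miR-5099 lay within its 0 h range. miR-3089-3p could not be placed, because 0 counts there still allow 10.6 CPM, more than any of its 0 h values. The others lay below theirs, miR-8112 and miR-3102-3p.2-3p on 2 counts each. Whether the share of unlabelled RNA in the captures changed over the chase was not tested.

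**Figure D4:**
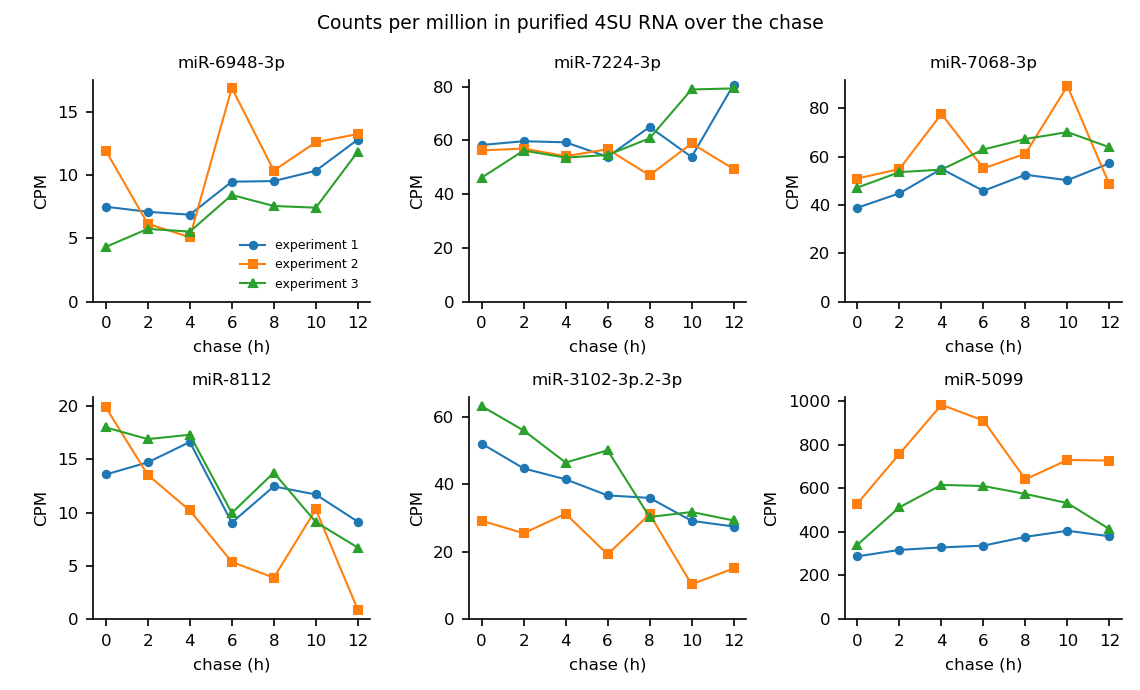
CPM in purified 4SU RNA against hours of chase for 6 late-numbered miRNAs, 1 line per experiment, each axis starting at 0. miR-6948-3p ends above its 0 h value in all 3 experiments and miR-8112 below it, while the line of experiment 2 lies above the others at every time for miR-5099.

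The ends of the chase called fewer members than the slope, and not all the same ones. With the block, miR-6539 was called here and not by the slope. miR-6944-3p, miR-3089-3p and miR-3074-2-3p were called by the slope alone. Comparing 12 h with 0 h (3 libraries each), 0 of 66 members passed an adjusted p of 0.05 in edgeR without the block, beside 0.483% of all names rising and 0.725% falling; 4 members had an unadjusted p under 0.05, and DESeq2 also called 0 members. With the replicate block 6 members rose and 2 fell, beside 9.66% and 12.1% of all names. miR-3058-3p had the largest change, a log2 difference of 1.91 ± 0.59 (SE, edgeR with the block, adjusted p = 0.0209), from 1.03 CPM, 0.33 CPM and 1.30 CPM to 3.66 CPM, 2.65 CPM and 2.76 CPM. These values did not overlap but rest on 1 to 12 counts per library. The other risers were miR-6948-3p (1.01 ± 0.31, adjusted p = 0.0203), miR-7224-3p (0.64 ± 0.20, 0.0209), miR-5099 (0.63 ± 0.16, 0.0062), miR-7068-3p (0.59 ± 0.18, 0.0196) and miR-6539 (0.56 ± 0.16, 0.0105). miR-8112 (-1.23 ± 0.38, adjusted p = 0.0205) and miR-3102-3p.2-3p (-0.75 ± 0.23, 0.0202) fell.

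Isoform proportions over the chase were tested with limma on the log2 odds of canonical to other reads (0.5 added to each) for the 237 names with at least 10 counts in every purified library, 18 of them members. The canonical share of miR-6539 fell. It was 13.3%, 18.7% and 13.4% at 0 h in experiments 1 to 3, 16.4%, 21.8% and 16.5% at 2 h, and 7.68%, 6.74% and 5.90% at 12 h. All 3 experiments moved alike and the 0 h and 12 h values did not overlap, while trimmed forms went from 84.2% ± 3.2 to 92.7% ± 0.6 (SD, n = 3). The log2 odds fell by 0.12 ± 0.02 per h (SE; limma adjusted p = 1.3e-05), with the replicate block by 0.12 ± 0.01 (limma adjusted p = 2.1e-06), and each of the 24 fits that left out a library or an experiment kept the call. It was the single member called, 0 rising and 1 falling, beside 3.38% of the 237 names rising and 7.59% falling (8.86% and 17.3% with the block). The total abundance of miR-6539 did not fall with its canonical form: its slope over all forms was 0.029 ± 0.030 per h (edgeR adjusted p = 0.622), and counting canonical reads alone it was -0.084 ± 0.033 (adjusted p = 0.090). For miR-6944-3p and miR-7224-3p the slopes of the log2 odds were 0.016 ± 0.010 and -0.0049 ± 0.0221, with limma adjusted p of 0.367 and 0.908.

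**Figure D5:**
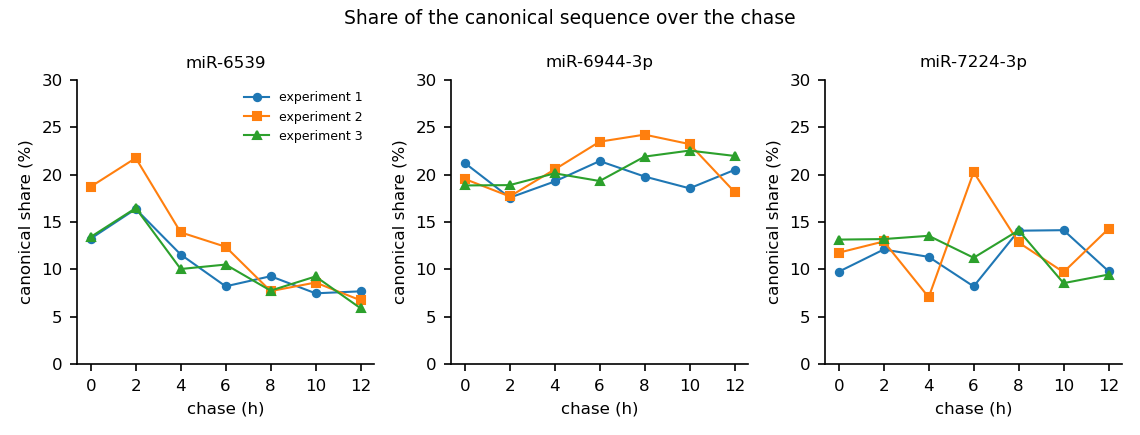
Canonical share of counts (%) against hours of chase for miR-6539, miR-6944-3p and miR-7224-3p, 1 line per experiment on a common axis from 0 to 30%. miR-6539 goes from 13.3% to 18.7% at 0 h down to 5.90% to 7.68% at 12 h in all 3 experiments, and the lines of the other 2 miRNAs have no common direction.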

How the data were processed

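Small RNA libraries of mouse 3T9 fibroblasts were analysed from 1 deposited table of raw read counts per miRNA and isoform class (7129 entries, 24 libraries; 1 exact repeat was dropped). The counts were made by the authors; the submitters' processing notes name CASAVA 1.8.0, while aligner, genome build and class definitions are not given in the sources. For each mature name the 8 exclusive classes were summed. CPM were computed from all counts in a library. The members and lists were chosen with earlier results of these data known. The chase slope and the contrast of 12 h with 0 h were fitted with edgeR 4.0.16 (TMM, filterByExpr, quasi-likelihood) and isoform odds with limma 3.58.1 in R 4.3.3; DESeq2 1.42.0 was an alternative. P-values were adjusted over all names tested by Benjamini-Hochberg; the fits were tested on simulated data. Labelling, background and isoform shares are descriptions with no test, for names with at least 10 counts in the reference library where a ratio is given. Positions come from RefSeq and GENCODE vM21. Named members were all those past a threshold, the 10 most abundant, 4 given by the choice of members (miR-5099, miR-6539, miR-7224-3p and miR-8112), and the 2 highest and 2 lowest in labelling; further members were named after their values were seen. The experiments are stated to be independent, and their numbers pair the libraries: of 63 pairs of libraries from the same experiment, the correlation of deviations from the time means was 0.311 to 0.738, and 21 of 21 libraries correlated best with their own experiment. Each experiment also carries its own code in the table's header, so the experiment and what the code stands for cannot be told apart. Counting error alone limits a count of 0 to 3 counts.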

Additional observations from a re-analysis of the deposited data

How the results depend on the processing

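The 3 members called for the chase slope became 10 with the replicate block, 5 with DESeq2, 5 with limma-voom, 1 without the low-count filter, 1 without non-templated classes, 1 with the canonical sequence only, 1 without the 0 h libraries, 0 without the 12 h libraries, and 0 to 10 when a library or an experiment was left out. With the replicate block, alternatives added after the data were seen gave 8 (total counts), 15 (upper quartile), 6 (without 0 h), 7 (without experiment 1) and 15 (without experiment 2). For all names, 51 slope calls became 132 with the replicate block, 17 without 0 h, 22 without 12 h and 15 to 77 when a library or an experiment was left out; the block with total counts gave 147, with upper quartile 133, without 0 h 97, and without experiments 1, 2 and 3 it gave 88, 146 and 91. For 12 h against 0 h, 0 members became 8 with the block, and the 5 calls over all names became 90 with the block, 15 with DESeq2, 14 by total counts, 8 by upper quartile, 10 without the filter and 0 to 14 with a library or an experiment left out. The canonical share slope called 1 member under each alternative run; its 26 calls over all names became 62 with the block and 13 to 29 with a library or an experiment left out. The slope of miR-6539 (0.029 over all forms) turned to -0.084 with the canonical sequence only; no other named slope changed sign. The members' median labelling ratio moved to 0.21 with TMM and to 0.22 against unlabelled total RNA. Their median share of added U was 2.47% in purified and 0.91% in the total RNA libraries, and the canonical share of the acceptor-ended members 12.7% to 14.0% with an experiment left out. A threshold of 500 counts left 30 members. The cause of these shifts was not tested. Depth limits the rare members, of which 57 had under 500 counts over 24 libraries.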
